A study of Mus musculus with 2 samples.

Results

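Heat-shock proteins and their J-protein co-chaperones were followed through the cell classes of the mouse hippocampus in a knockout model of Fabry disease and in control littermates. The members were all genes listed in both libraries whose symbol starts with Dnaj, Hspa, Hspb, Hspd, Hspe, Hsph or Hsp90. This rule found 64 genes among the 12744 that both libraries list. They were split into 9 heat-inducible members, 9 members of the endoplasmic reticulum and 46 other members, called constitutive below. Hspbp1 and Hspbap1 are members by their prefix only. The study profiled dissociated hippocampal cells by droplet single-cell RNA sequencing (10x Genomics, 3′ tags with unique molecular identifiers, UMIs). The GlaKO group lacks a working gene for alpha-galactosidase A, the lysosomal enzyme that is deficient in Fabry disease, and the wt group consists of its littermates. Both were 57 weeks old, were perfused and dissociated with enzymes in the same way, and had cells sorted with a viability dye. The labels give neither sex nor strain background, nor how many animals went into each suspension.

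Each genotype was represented by 1 library, so no difference between genotypes could be tested. Every ratio below compares these 2 libraries and not the genotypes, and its 95% interval covers the counting error of UMIs only.

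Heat-shock proteins bind unfolded proteins and help them to fold, to move or to be degraded. Hsp70 proteins work in cycles of ATP binding and hydrolysis that J-proteins start and nucleotide exchange factors such as Hsph1 reset, and they hand clients on to Hsp90. A few genes of the family are switched on by heat-shock factor 1 when proteins misfold, whereas most, such as Hspa8 and Hsp90ab1, are expressed at all times, and those of the endoplasmic reticulum answer to the unfolded protein response. In brain, neurons are known for a weak heat-shock response compared with glia.

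Promoters of some inducible members are shown for the sequence by which heat-inducible genes are known in textbooks, the heat-shock element. Its units GAA and TTC stand inverted, and the pair searched was GAANNTTC, which reads the same on both strands (N is any base). Sequences come from RefSeq (GRCm38.p6), run 5′ to 3′ on the gene's strand and end at the base before the annotated start where 150 bases are given, with matches in capitals. Hspa1a (chr17:34972157-34972306, minus strand) and Hspa1b (chr17:34959239-34959388, minus strand) encode the heat-inducible Hsp70, and Hspb1 (chr5:135887769-135887918, plus strand) encodes the small heat-shock protein Hsp25.
Hspa1a: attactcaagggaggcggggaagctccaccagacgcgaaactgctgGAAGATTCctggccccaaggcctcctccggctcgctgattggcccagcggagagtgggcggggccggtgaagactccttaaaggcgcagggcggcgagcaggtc
Hspa1b: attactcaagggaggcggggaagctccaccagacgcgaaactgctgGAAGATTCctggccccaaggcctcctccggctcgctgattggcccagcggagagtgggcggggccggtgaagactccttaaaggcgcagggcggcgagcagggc
Hspb1: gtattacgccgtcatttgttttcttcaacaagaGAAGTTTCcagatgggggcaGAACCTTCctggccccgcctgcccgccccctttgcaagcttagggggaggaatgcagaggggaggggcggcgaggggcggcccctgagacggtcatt
The Hspa1a and Hspa1b stretches were identical at 149 of 150 positions, and the match starts 104 bases before the annotated start in both. In Hspb1 the 2 matches start 117 and 97 bases before it. Hspd1 and Hspe1, the mitochondrial Hsp60 and its partner Hsp10, lie head to head with overlapping annotated first parts, and a stretch before the Hspe1 start (chr1:55088053-55088082, plus strand), which lies within the longest annotated Hspd1, held the 3-unit forms GAANNTTCNNGAA and TTCNNGAANNTTC overlapping each other. For contrast, Hspa5, the Hsp70 of the endoplasmic reticulum also called BiP, held the endoplasmic reticulum stress element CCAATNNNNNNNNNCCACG (chr2:34772019-34772048, plus strand).
Hspe1: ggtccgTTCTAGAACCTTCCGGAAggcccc
Hspa5: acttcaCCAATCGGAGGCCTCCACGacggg

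Promoters of 250 bases before to 50 after a start were found for 52 of the 64 members. Missing were Dnajc2, Dnajc5, Dnajc11, Dnajc12, Dnajc18, Dnajc30, Hsp90aa1, Hsp90ab1, Hspa8, Hspa9, Hspa13 and Hspb2. The pair GAANNTTC was found in 7 of 8 inducible members (Dnaja1, Hspa1a, Hspa1b, Hspb1, Hspd1, Hspe1 and Hsph1, but not Dnajb1), in 0 of 8 endoplasmic reticulum members and in 6 of 36 constitutive members, counting a gene if any of its annotated starts has a match. By the same count it was found in 9.04% of all 27025 genes, and per promoter in 7.86% of all 32851. Dnaja1 and Hspd1 had the match at only 1 of their starts. The constitutive members with a match were Dnaja4, Dnajb6, Dnajc27, Hspb3, Hspb6 and Hspb8. A 3-unit form was found in Hspd1, Hspe1, Hsph1 and Dnajb6, beside 0.662% of all genes and 0.603% of all promoters. The stress element, searched on both strands, was found in Hspa5, Hsp90b1 and Dnajc3, beside 0.137% of all genes and 0.119% of all promoters. A match describes these letters and does not show that a factor binds there.

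The wt library held 5443 cell barcodes with 31929688 UMIs and the GlaKO library 4572 with 29914106, at a median of 5054 and 6101 UMIs per cell, and 6 barcodes occurred in both. Clusters made without the members were named from fixed markers, and 7 classes held at least 100 cells of each library. In wt and GlaKO these were choroid plexus epithelium (2608 and 802 cells), oligodendrocytes (849 and 1337), their precursors (375 and 448), astrocytes (393 and 432), microglia (446 and 724), neurons (392 and 432) and T cells (169 and 209). Choroid plexus epithelium is not hippocampal tissue but borders it. Every marker of a class that both libraries list had at least 1 UMI in that class in both. This is no separate check, since clusters were named from these markers and those of other classes were mostly counted too. In the epithelium 0 of 8 oligodendrocyte and 0 of 10 microglia markers were without UMIs. Gla, the targeted gene, had 12.4 of 1000000 UMIs in wt and 7.43 in GlaKO, and since 3′ tags need not come from the altered stretch, this does not check the labels.

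The inducible members differed in where they were most abundant. Levels are given as CPM, the UMIs of a gene per 1000000 UMIs of its class. Hspa1a was highest in microglia, at 398 CPM in wt and 483 in GlaKO, followed by T cells at 392 and 271 and oligodendrocytes at 231 and 284. Choroid plexus epithelium and astrocytes were the lowest classes, at 15.6 and 17.4 in wt and at 48.8 and 23.4 in GlaKO. Hspa1b had the same 3 leading classes, with 414 and 312 in T cells, 168 and 331 in microglia and 190 and 306 in oligodendrocytes. Its low classes were again choroid plexus epithelium (10.2 and 39.4) and astrocytes (15.1 and 28.9). Hspa1a and Hspa1b (chr17:34969190-34972156 and chr17:34956436-34959238, GRCm38) have coding sequences that are 99.6% identical and tails after them that are 71.8% identical over the aligned bases, so how reads were divided between them is uncertain.

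Neurons had less Hsp70 than oligodendrocytes, microglia and T cells and the most Hsph1, the Hsp110 that exchanges its nucleotide. Neuronal Hspa1a was 92.2 and 74.9 CPM in wt and GlaKO, about the level of oligodendrocyte precursors (108 and 92.4). Hsph1 was highest in neurons, at 251 and 289, and lowest in astrocytes (34.8 and 60.1) and microglia (37.3 and 66.3). Dnajb1, the J-protein that pairs with inducible Hsp70, followed Hsp70 rather than Hsph1: it led in microglia (292 and 340), T cells (242 and 192) and oligodendrocytes (213 and 206) and was at 66.6 and 52.3 in neurons. Dnaja1, its class A relative, led in T cells (880 and 927) and was lowest in astrocytes (293 and 311). Hsp90aa1, the inducible cytosolic Hsp90, led in oligodendrocytes at 3433 and 3825 and was lowest in astrocytes at 348 and 504. Hspd1 and Hspe1 led in choroid plexus epithelium, at 300 and 395 for Hspd1 and at 800 and 1033 for Hspe1.

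Hspb1 (chr5:135887919-135889563) was highest in choroid plexus epithelium among the 7 classes. It stood there at 204 CPM in wt and 563 in GlaKO, against 48.3 and 71.6 in microglia, 29.2 and 17.8 in neurons and under 20 in each other class. Within neurons it belonged mostly to the cluster led by Reln and Ndnf (65 and 60 cells), at 122 and 135 CPM, against 12.6 and 3.90 in the largest neuronal cluster. Endothelial cells, too few in GlaKO to compare (100 and 33 cells), stood at 2873 in wt, above the epithelium, and at 478 in GlaKO, below it.

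**Figure D1:**
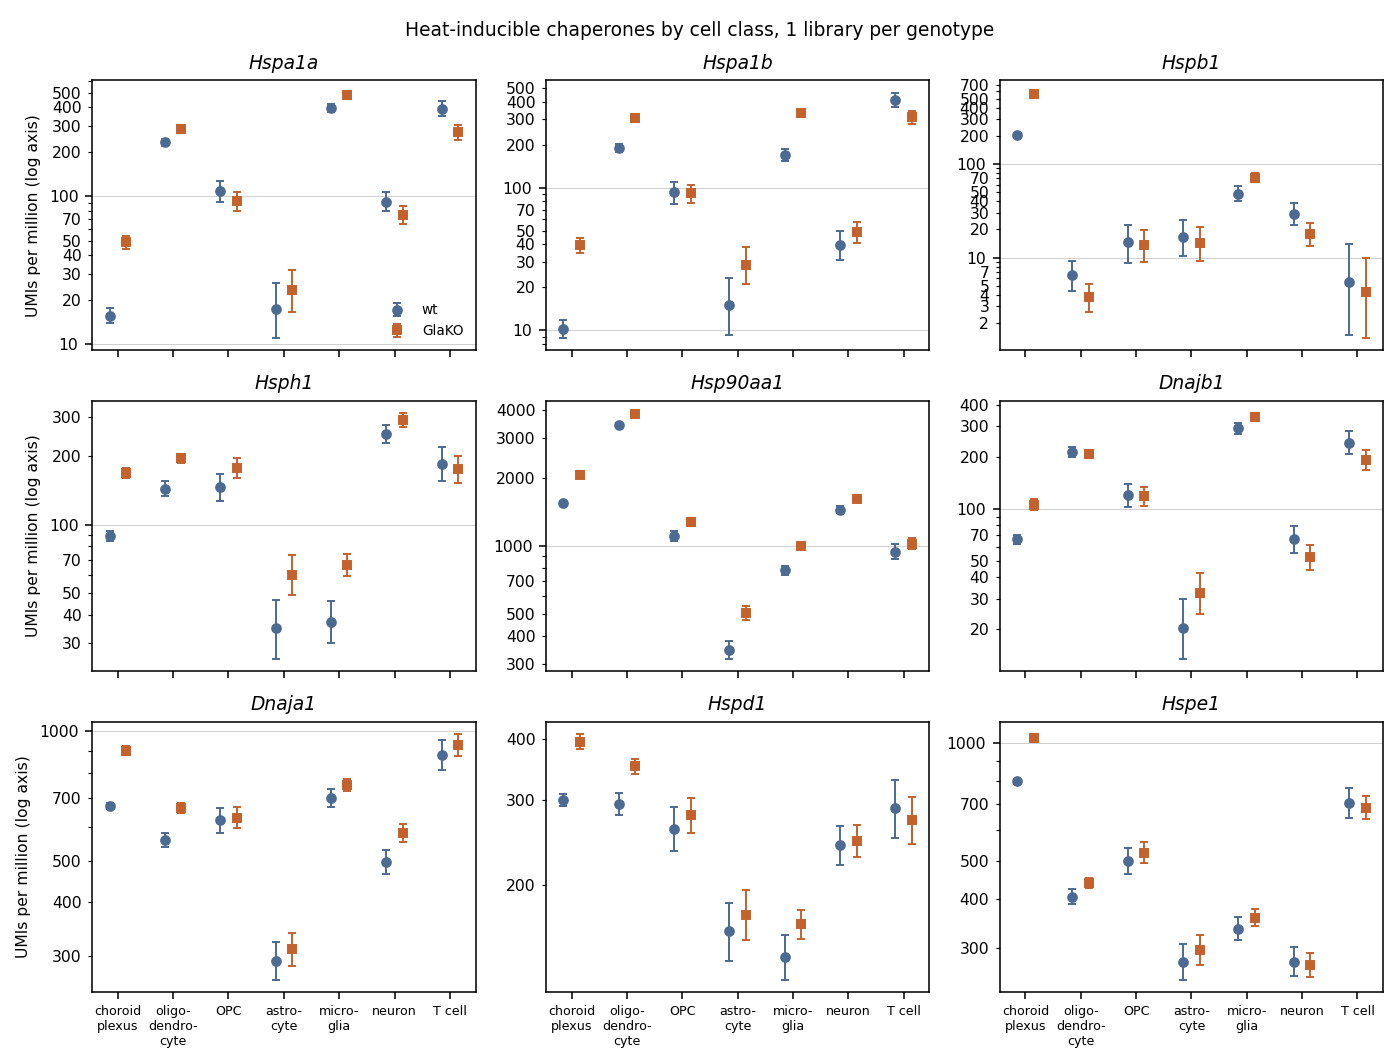
CPM (log axis) of the 9 inducible members in the 7 cell classes, with the wt library as circles, the GlaKO library as squares and bars for the 95% counting interval. Choroid plexus epithelium has GlaKO above wt in all 9 panels, while Hspa1a, Hspa1b and Dnajb1 in T cells have it below.

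Among all members, 11 were class-restricted, meaning that the same class was highest in both libraries and at least 4 times the median class in both. This is 17.2% of 64 members, beside 35.4% of all genes, and the highest class was the same in both libraries for 53 members (82.8%, beside 82.5% of all genes). After thinning each cell to 1000 UMIs, 7 members passed. Of the 6 members listed as small heat-shock proteins 5 were restricted, 4 of these to choroid plexus epithelium, and the sixth, Hspb11, is named as one but is a subunit of the transport machinery of cilia. Hspb8, which works with Bag3 in selective autophagy, was at 123 and 170 CPM there, and of the 7 classes astrocytes followed at 30.3 and 38.5. Endothelial cells, too few to compare, had Hspb8 at 78.3 (28 UMIs) and 50.7 (7 UMIs). Hspb6 was at 38.7 and 27.0 and Hspb2 at 27.2 and 18.1 in choroid plexus epithelium. Pericytes, also too few to compare, had Hspb2 at 64.9 (7 UMIs) and 67.4 (3 UMIs). Hspb2 overlaps Cryab on the other strand, and the labels do not say whether the counting used strand. Hspb3, best known from muscle, was at 59.8 and 62.7 CPM in microglia, at 2.05 and 2.18 in neurons and at 0 UMIs in astrocytes of both libraries.

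J-proteins with a leading class were found in epithelium, oligodendrocytes and neurons. Dnajb2, a J-protein with ubiquitin-binding motifs known from neurons, was at 701 and 739 CPM in oligodendrocytes and at 74.3 and 84.7 in neurons. Dnajc6 (auxilin), which uncoats clathrin vesicles, was at 107 and 99.2 in neurons and at 58.6 and 60.1 in oligodendrocytes. Neurons also led for Hspa12a, a distant Hsp70 relative, at 93.8 and 92.3, and for Dnajb5, at 63.0 and 71.6. Choroid plexus epithelium led for Dnajc15, a J-protein of the inner mitochondrial membrane, at 396 and 390, with T cells next at 236 and 275. It also led for Dnajb13, a component of the axoneme of motile cilia, at 18.0 and 20.2, with 5.46 and 6.79 in T cells. Dnajb13 overlaps Ucp2 on the other strand.

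**Figure D2:**
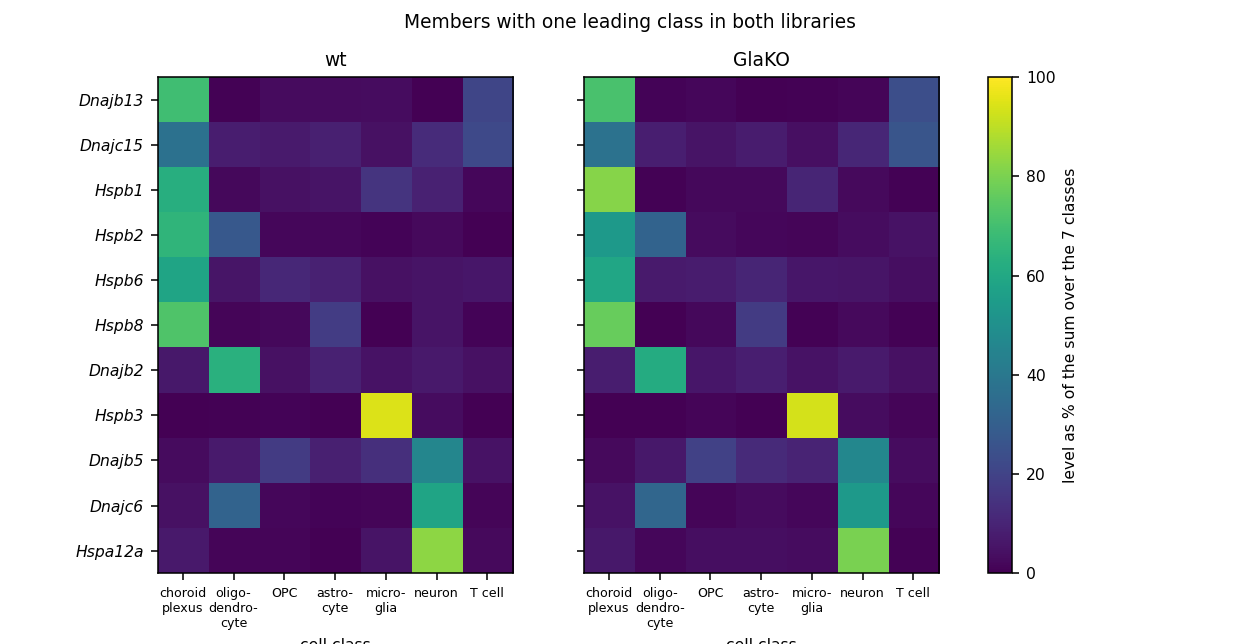
Level of each of the 11 class-restricted members in each class as a percentage of its sum over the 7 classes, for wt (left) and GlaKO (right). The leading class is the same in both panels for every row, and Hspb3 has nearly all of its level in microglia.

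The abundant constitutive chaperones were present in every class. Hspa8, the constitutive Hsp70, ranged from 1028 CPM in astrocytes to 2289 in T cells in wt, and from 1022 in astrocytes to 2356 in choroid plexus epithelium in GlaKO. Hsp90ab1, the constitutive Hsp90, ranged from 762 and 828 in astrocytes to 3621 and 4053 in oligodendrocytes. Hspa5 was highest in microglia (1289 and 1336) and lowest in T cells (329 and 401). Hsp90b1, the Hsp90 of the endoplasmic reticulum, was highest in oligodendrocyte precursors (1329 and 1358) and lowest in T cells at 474 in both libraries. Astrocytes were the lowest class for Hspa8 and Hsp90ab1, as they were for Hsp90aa1 and Dnaja1.

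The question of genotype was then taken class by class, over genes with at least 100 UMIs summed over both libraries. A member was called higher where its log2 ratio of GlaKO over wt was at least 0.32 and lower where it was at most −0.32. The lists were chosen with earlier results of these data known, so their counts and medians are a description and not a test. In choroid plexus epithelium all 9 inducible members were higher in the GlaKO library, beside 16.3% of all 9436 genes compared there. Their median log2 ratio was 0.66 (0.53 to 0.80, the medians of the members' interval bounds), beside 0.13 for the 9 endoplasmic reticulum members, 0.08 for the 43 constitutive members compared and 0.06 for all genes. Of the endoplasmic reticulum members 2 were higher and 0 lower, and of the constitutive members 8 were higher and 4 lower, beside 8.7% of all genes lower. The other 6 classes showed smaller medians for the inducible members: 0.28 in microglia, 0.25 in oligodendrocytes, 0.11 in astrocytes, 0.04 in precursors, 0.03 in neurons and −0.08 in T cells. The constitutive medians ran from 0.00 in astrocytes to 0.17 in T cells.

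**Figure D3:**
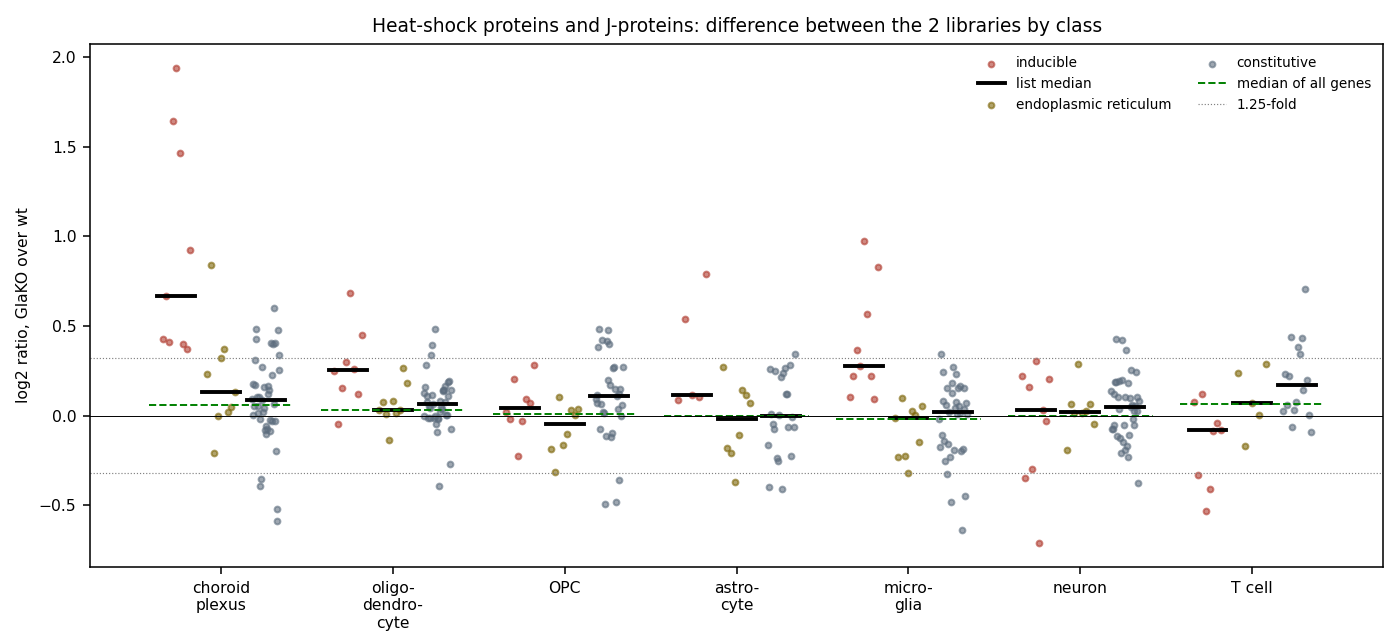
Log2 ratio of GlaKO over wt for each member compared (points), by class and set, with the median of each set (black bars), the median of all genes (dashed) and the limit for a call in either direction (dotted). The inducible points of choroid plexus epithelium all lie above the upper dotted line, and no other class shows this.

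In choroid plexus epithelium the 3 largest ratios belonged to the inducible Hsp70 genes and Hspb1. Hspa1b had 187 UMIs in wt and 292 in GlaKO, which is 10.2 and 39.4 CPM and a log2 ratio of 1.94 (1.67 to 2.21). Hspa1a had 285 and 362 UMIs, which is 15.6 and 48.8 CPM and a log2 ratio of 1.64 (1.42 to 1.87). Even so, both remained below their level in GlaKO oligodendrocytes, precursors, microglia, neurons and T cells. Hspb1 had 3722 and 4172 UMIs, which is 204 and 563 CPM and a log2 ratio of 1.46 (1.40 to 1.53). Hsph1 stood at 89.2 and 169 CPM (log2 ratio 0.92, 0.81 to 1.03) and Dnajb1 at 66.5 and 105 (0.66, 0.53 to 0.80). The 4 remaining inducible members had smaller ratios that lay close together. Dnaja1 stood at 670 and 900 CPM (0.43), Hsp90aa1 at 1557 and 2070 (0.41), Hspd1 at 300 and 395 (0.40) and Hspe1 at 800 and 1033 (0.37). These 4 were the inducible members with the most 3′ tags in wt epithelium, and the 5 with fewer had the larger ratios.

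The difference in choroid plexus epithelium was seen in each of its 4 clusters with at least 20 cells of each library. The 9 inducible members together stood at 3225 CPM in wt and 4079 in GlaKO in cluster 2, 3905 and 5474 in cluster 4, 3934 and 6030 in cluster 5, and 3662 and 4602 in cluster 7. Hspb1 was likewise higher in each: 143 and 296 CPM, 233 and 585, 251 and 707, and 177 and 439 in the same order. GlaKO cells were deeper in this class, with a median of 8611.5 UMIs against 5866.5, and had a lower median mitochondrial share, 1.2% against 2.46%. When cells of both libraries were placed in 5 parts by depth, the wt level ran from 3577 to 3849 and the GlaKO level from 4896 to 5506, without overlap. The median cell gave 0.357% of its UMIs to the inducible members in wt and 0.517% in GlaKO, and the tenth percentile in GlaKO (0.293%) was above the lower quartile in wt (0.287%).

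**Figure D4:**
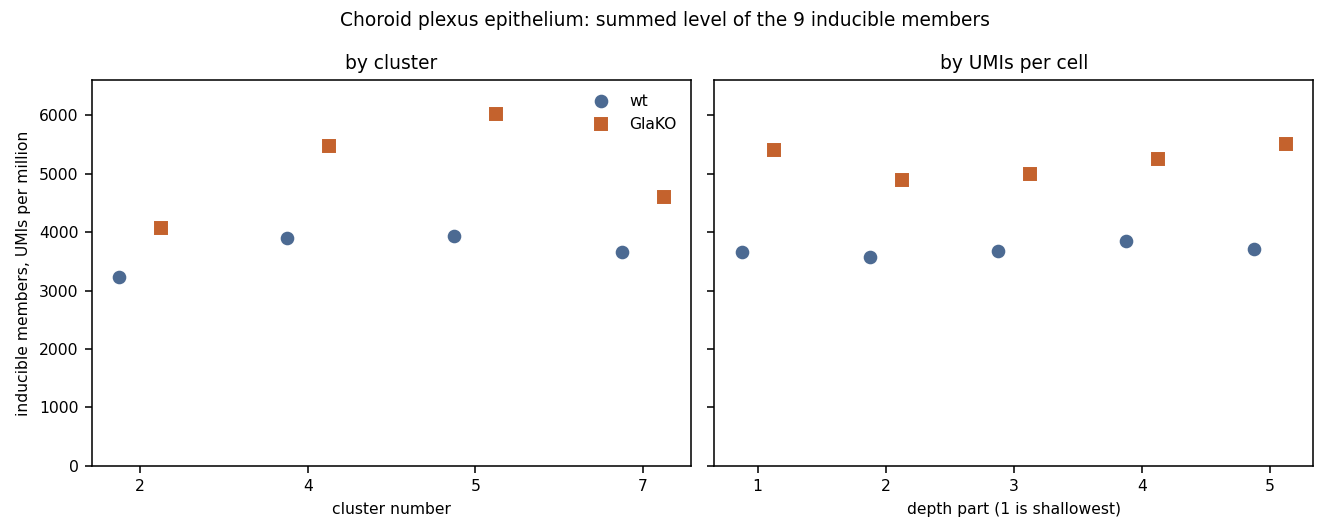
Summed CPM of the 9 inducible members in choroid plexus epithelium, by cluster (left) and by part of the range of UMIs per cell (right), for wt (circles) and GlaKO (squares). GlaKO lies above wt in all 4 clusters and all 5 depth parts.

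Markers of other cells in choroid plexus epithelium were below its own, which summed to 18460 CPM in wt and 16450 in GlaKO. Some differed between the libraries. The 7 endothelial markers summed to 43.4 CPM in wt and 40.7 in GlaKO, with 1 of them at 0 in GlaKO. Ependymal markers had the largest sum of other cells, at 458.7 in wt and 551.9 in GlaKO. Oligodendrocyte markers summed to 230 and 424, astrocyte markers to 135.5 and 175.5 and pericyte markers to 60.8 and 23.6. Those of red blood cells summed to 34.8 and 105. Immediate-early genes, which respond quickly to handling and to stimulation, were also higher, with a median log2 ratio of 0.43. Of the 15 compared 10 were called higher and 0 lower, beside 16.3% and 8.7% of all genes. The part of any of these markers and genes in the chaperone values was not tested.

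Among the constitutive members of choroid plexus epithelium, those of the cytosolic folding machinery led. Hspa8 stood at 1781 and 2356 CPM (0.40, 0.38 to 0.43) and Hsp90ab1 at 1546 and 2046 (0.40, 0.38 to 0.43), the same ratio as Hsp90aa1. Of the 7 cytosolic Hsp70, Hsp110 and Hsp90 genes that are not inducible members, 4 were higher and 0 lower, with a median of 0.40. Of all genes compared in this class, 16.3% were higher and 8.7% lower. Hspa4l, an Hsp110, was at 81.9 and 124 (0.60), and Hspa2 at 50.7 and 66.9 (0.40). Of the 7 class A and class B J-proteins that are not inducible members 2 were higher, Dnajb4 (36.2 and 50.6, log2 ratio 0.48) and Dnajb2 (70.4 and 94.4, 0.42). Of the 3 vesicle J-proteins and of the 6 J-proteins of ribosome, RNA and nucleus, 0 passed in either direction. These groups are too small to set apart from the shares over all genes. Of the 9 mitochondrial members only the inducible Hspd1 and Hspe1 passed, and the others, Hspa9 among them (194 and 190, −0.03), had ratios between −0.10 and 0.05.

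Small heat-shock proteins of this epithelium lay on both sides. Hspb8 was higher, at 123 and 170 CPM (0.48, 0.38 to 0.58), beside the 1.46 of Hspb1. Hspb2, with 496 and 134 UMIs, was lower at 27.2 and 18.1 CPM (−0.59, −0.88 to −0.31), and Hspb6, with 706 and 200, at 38.7 and 27.0 (−0.52, −0.75 to −0.29). Hspb2 and Hspb6 were the lowest ratios of the class, followed by Dnajc14, at 9.05 and 6.88 (−0.40, −0.88 to 0.07), whose interval includes 0. So the 4 small heat-shock proteins among the members that lead in this class, of the 7 compared, split into 2 higher and 2 lower. Cryab, of the same family but outside the prefix rule, was more abundant than each of them, at 1537 and 1462 CPM (−0.07, −0.11 to −0.04).

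In the endoplasmic reticulum of the same cells the 2 main folding chaperones differed less than some of their partners. Hspa5 was at 895 and 980 CPM (0.13, 0.09 to 0.17) and Hsp90b1 at 1009 and 1024 (0.02, −0.02 to 0.06). Dnajb9, a J-protein induced by the unfolded protein response, was at 46.0 and 82.2 (0.84), the only member of the set above 1.5-fold, and Dnajc3 was at 141 and 183 (0.37). The list of 18 other genes of this pathway had 7 of 16 compared called higher and 0 lower, with a median of 0.19. Over all genes of the class, 16.3% were higher and 8.7% lower. Herpud1, of the degradation machinery, led at 108 and 222 CPM (1.05), followed by Sdf2l1 at 210 and 411 (0.97) and Creld2 (0.91). Pdia6 (−0.29), Sil1 (−0.27) and Calr (−0.04) were its lowest. The median of the 9 endoplasmic reticulum members was 0.34 when depth was balanced and 0.33 when clusters were weighted equally, against 0.13. Under these settings Hspa5 was at 0.48 and 0.33, past the limit for a call, and Hsp90b1 at 0.29 and 0.22.

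Partner proteins and factors of the cytosolic response in choroid plexus epithelium gave 6 higher and 1 lower of 23 compared, with a median of 0.14. This stands beside 16.3% of all genes higher and 8.7% lower. Chordc1, an Hsp90 partner, stood at 111 and 189 CPM (0.76), Bag3, the exchange factor that pairs with Hspb8, at 13.7 and 21.2 (0.63), and Stip1, which links Hsp70 to Hsp90, at 232 and 315 (0.44). Bag5 (−0.34), Unc45a (−0.23) and Bag4 (−0.15) had the lowest ratios. Hsf1, the transcription factor of the response, was at 15.4 and 17.4 (0.18, −0.13 to 0.49), and its interval includes 0.

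Microglia had the next largest inducible median, with 4 of 9 inducible members higher and 0 lower, beside 8.27% and 8.52% of all genes called higher and lower. Hspa1b was at 168 and 331 CPM (0.97, 0.82 to 1.13), Hsph1 at 37.3 and 66.3 (0.83, 0.49 to 1.18), Hspb1 at 48.3 and 71.6 (0.57, 0.26 to 0.88) and Hsp90aa1 at 780 and 1004 (0.36, 0.29 to 0.44). The Hspb1 UMIs came from 40 wt and 58 GlaKO cells, and a single cell held 21.2% and 17.5% of them, so that interval can be too narrow. Hspa1a differed less, at 398 and 483 (0.28), and Hspa8 was at 1894 and 2108 (0.15). The difference was not seen in all microglia. In cluster 3 (354 and 589 cells) Hspa1a and Hspa1b together held 584 CPM in wt and 846 in GlaKO. In the shallow cluster 14 (74 and 111 cells) they held 562 and 519. By depth, their level was lower in GlaKO in the 2 shallowest of 5 parts (794 and 637, 1149 and 780) and higher in the other 3 (555 and 1391, 281 and 850, 301 and 552). With all cells thinned to 1000 UMIs the ratio of Hsph1 was 0.17, and with clusters weighted equally that of Hspa1b was 0.40. Over all sets 5 of 53 members were higher and 5 lower. The lowest were Hspa2, at 20.5 and 13.1 (−0.64, −1.20 to −0.07), Dnajc16, at 19.2 and 13.8 (−0.48), and Hspb11, at 23.8 and 17.4 (−0.45), and the intervals of the last pair include 0.

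In oligodendrocytes 2 of the 8 inducible members compared were higher and 0 lower, beside 7.89% and 5.01% of all genes. These were Hspa1b, at 190 and 306 CPM (0.69, 0.58 to 0.79), and Hsph1, at 144 and 196 (0.45, 0.32 to 0.57). Of 23 partner proteins and factors compared in this class 1 was higher and 2 were lower, with a median of 0.02. This stands beside the same 7.89% and 5.01% of all genes. The highest was Bag3, at 16.4 and 26.4 CPM (0.69), and the lowest ratio of that list was −0.78. Hspa1a stood at 231 and 284. The intervals of Hspa1a (0.30, 0.20 to 0.40), Hspd1 (0.26), Dnaja1 (0.25), Hsp90aa1 (0.16) and Hspe1 (0.12) all excluded 0, with ratios below the limit for a call, whereas Dnajb1 was at 213 and 206 (−0.04). After thinning to 1000 UMIs Hspe1 was at −0.01. Of all 56 members compared 5 were higher and 1 was lower. Dnajc18, at 75.8 and 106 (0.48, 0.31 to 0.66), was the second highest, and Dnajc27 (−0.39), Hspb11 (−0.27) and Dnajc10 (−0.14) were the lowest. Immediate-early genes in this class had a median of −0.09 (−0.33 to 0.04, the medians of the genes' interval bounds). Their median was 0.14 in microglia, −0.08 in precursors, −0.21 in neurons and −0.03 in T cells. How these genes relate to the inducible members was not tested.

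Astrocytes, the class with the lowest levels, had 5 inducible members with enough UMIs, of which 2 were higher and 0 lower, beside 10.2% and 8.06% of all genes. Hsph1 was at 34.8 and 60.1 CPM (0.79, 0.27 to 1.32) and Hsp90aa1 at 348 and 504 (0.54, 0.37 to 0.70), whereas Hspd1, Hspe1 and Dnaja1 had ratios of 0.11, 0.10 and 0.09. The constitutive Hspa8 and Hsp90ab1 had ratios of −0.01 and 0.12. With genes of 20 or more UMIs admitted, the inducible median was 0.43. Over all sets 3 of 35 members were higher and 3 lower: Hspb8 was the third highest (0.34), and Dnajc24 (−0.41), Dnaja3 (−0.40) and Dnajc10 (−0.37) were the lowest, each with an interval that includes 0. Immediate-early genes were higher in 5 of 9, with a median of 0.36. Markers of other cells in astrocytes also differed, with oligodendrocyte markers at 521 and 1269 CPM and choroid plexus markers at 337 and 153. Oligodendrocyte markers were likewise higher in GlaKO in precursors (782 and 1541), neurons (536 and 1055), T cells (553 and 1483) and microglia (473.5 and 912). The part of these markers' cells in the chaperone values was not tested.

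Neurons had 0 of 9 inducible members higher and 2 lower, beside 10.9% and 8.89% of all genes. Hspb1, with 57 and 49 UMIs, was at 29.2 and 17.8 CPM (−0.71, −1.29 to −0.14), and a single cell held 34.7% of its UMIs in GlaKO. The ratio was −0.19 with neuronal clusters weighted equally. Dnajb1 was at 66.6 and 52.3 (−0.35, −0.70 to 0.01). The Hsp70 pair did not share a direction: Hspa1a was at 92.2 and 74.9 (−0.30) and Hspa1b at 39.4 and 48.7 (0.30). Without the 4% of cells with the highest doublet scores Dnajb1 was at 0.14 and Hspa1a at 0.07. Dnaja1 (0.22, 0.11 to 0.34), Hsph1 (0.20, 0.04 to 0.37) and Hsp90aa1 (0.16, 0.09 to 0.23) were on the other side, below the limit for a call, and Hsp90aa1 was at −0.01 after thinning. Of all 55 members compared 3 were higher, namely Dnajb4, at 115 and 155 (0.43, 0.19 to 0.67), Dnajc18, at 71.7 and 96.0 (0.42, 0.12 to 0.73), and Dnajc27 (0.37, −0.10 to 0.85), and 3 were lower, the third being Hspb11 (−0.38). After thinning Dnajb4 was at −0.04 and Dnajc27 at −0.32.

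T cells had 3 of the 8 inducible members compared lower and 0 higher, beside 7.88% and 19.3% of all genes. Hspa1a was at 392 and 271 CPM (−0.53, −0.77 to −0.30), Hspa1b at 414 and 312 (−0.41, −0.63 to −0.18) and Dnajb1 at 242 and 192 (−0.33, −0.62 to −0.04). When the cells of both libraries were weighted to the same depth, these ratios were 0.09, 0.00 and 0.09, and in wt the Hsp70 level ran from 1680 CPM in the shallowest part to 280 in the deepest. The Hspa1a UMIs came from 30 wt and 24 GlaKO cells and those of Hspa1b from 32 and 37, so their intervals can be too narrow. Of all 29 members compared 5 were higher, led by Hspa14, a ribosome-bound Hsp70 relative, at 39.6 and 64.5 (0.70, 0.07 to 1.38), Dnajc19 (0.44) and Dnajc9, a histone chaperone, at 106 and 143 (0.43, 0.03 to 0.84).

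Oligodendrocyte precursors had 0 of the 8 inducible members compared called in either direction, beside 10.4% and 7.69% of all genes higher and lower. Hsph1 (0.28, 0.03 to 0.54) and Hsp90aa1 (0.20, 0.11 to 0.30) had the highest inducible ratios, and Hspa1a (−0.22, −0.54 to 0.10) the lowest. Of all 47 members 6 were higher and 3 lower. The highest were Dnajb2, at 50.7 and 70.9 (0.48, 0.06 to 0.92), Dnajc2, a J-protein of the ribosome (0.48, −0.00 to 0.97), and Dnajc11 (0.42). After thinning Dnajc2 was at −0.67 and Dnajc11 at −0.13. The lowest were Dnajc15, at 78.2 and 55.4 (−0.50, −0.89 to −0.10), Dnajc9, at 57.9 and 41.5 (−0.48, −0.94 to −0.02), and Hspa2 (−0.36).

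**Figure D5:**
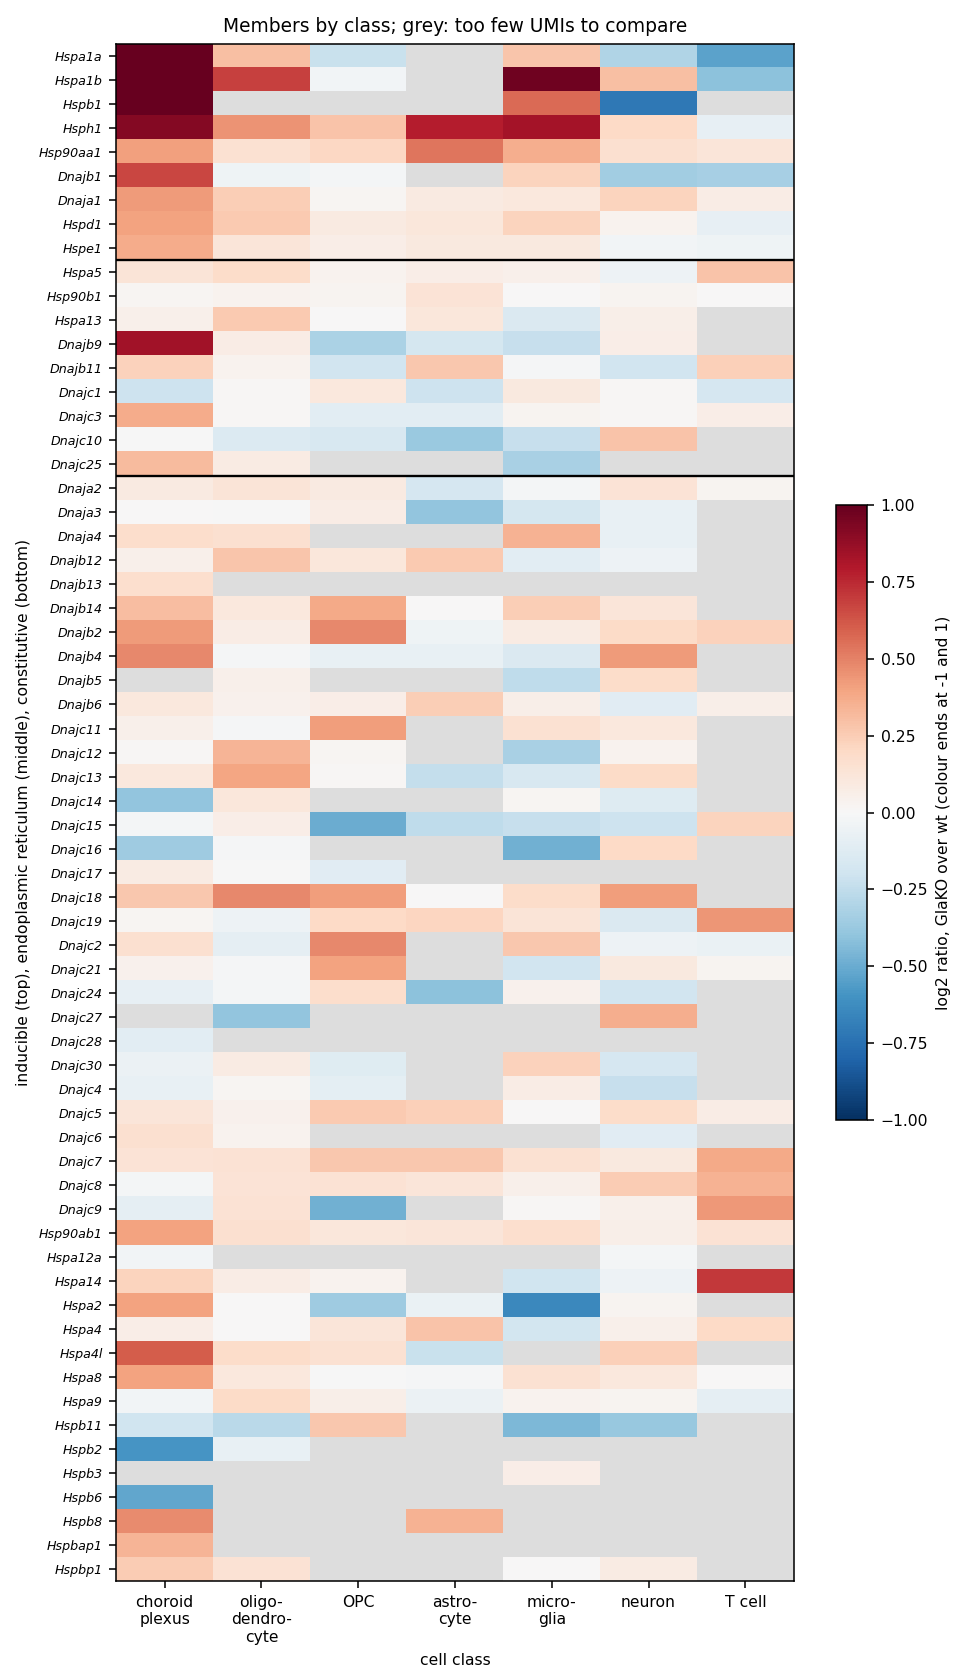
Log2 ratio of GlaKO over wt for all 64 members (rows, grouped as inducible, endoplasmic reticulum and constitutive) in the 7 classes (columns), with grey where fewer than 100 UMIs were counted. The first column is red through the whole inducible block, and Dnajb9 is the darkest row of the endoplasmic reticulum block in that column.

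The inducible Hsp70 was carried by few cells in most classes. The tenth of cells with the most held 82.5% of its UMIs in wt and 96.7% in GlaKO T cells, 67.9% and 70.1% in microglia, 57.2% and 53.4% in oligodendrocytes and 73.7% and 53.2% in choroid plexus epithelium. This share also moves with level and depth, and it was 100.0% in astrocytes of both libraries. Cells with at least 10 UMIs of Hspa1a and Hspa1b together made up 12.4% of wt and 7.66% of GlaKO T cells, and they held 89.7% and 94.6% of those UMIs. In microglia such cells were 8.74% and 11.9% and held 64.1% and 73.7% of the UMIs, and in oligodendrocytes they were 6.24% and 12.9% and held 45.2% and 60.9%. In choroid plexus epithelium only 1 of 2608 wt cells and 2 of 802 GlaKO cells reached 10 UMIs. The share of epithelial cells with at least 1 such UMI was 14.8% in wt and 41.3% in GlaKO. With every cell thinned to 1000 UMIs it was 2.80% (exact binomial interval 2.20% to 3.51%) and 9.23% (7.32% to 11.45%). In astrocytes, the other class with low levels, the thinned shares were 2.80% and 3.01% at median depths of 2981 and 3322.5 UMIs. No class is known to lack these genes and the share from free RNA was not measured, so the ratios of Hspa1a and Hspa1b in this epithelium are of all UMIs counted in its cells.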

How the data were processed

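Hippocampal cells of 2 libraries, 1 wt and 1 GlaKO, were measured with 10x 3′ chemistry. The deposited matrices hold whole-number UMI counts per gene and cell, made by the authors with Cell Ranger 6.0.1, R 4.1.3 and Seurat 4 on mm10, per the submitters' processing notes; annotation and strand setting were not stated. From these counts, Scrublet marked 25 wt (0.459%) and 70 GlaKO (1.531%) barcodes as doublets, which were removed; so low a share in wt does not show that the caller worked there. No barcode failed the limits of 500 genes and 20% mitochondrial UMIs. Both libraries were clustered together in scanpy 1.11.5 (2000 variable genes, 30 components, 15 neighbours, Leiden resolution 1) without the members, the partner lists, immediate-early, mitochondrial, ribosomal, red-cell and sex-linked genes, and clusters were named from fixed markers. UMIs were summed per class and library. The log2 ratio of GlaKO over wt of counts scaled to class totals was given an exact conditional 95% interval, which covers counting error only. It held its coverage on simulated counts that were drawn independently, as the interval assumes. That does not check it for genes whose UMIs sit in few cells, where the interval can be too narrow. Genes needed 100 summed UMIs. Alternatives used other minimum counts, TMM scaling in edgeR 4.0.16, thinning to 1000 UMIs, depth and cluster balancing, other doublet and cluster settings, and other lists.

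Members and lists were chosen with earlier results of these data known. Named were all inducible members, Hspa8, Hsp90ab1, Hspa5 and Hsp90b1, the 3 highest and 3 lowest members of each class, class-restricted members and the 3 highest and lowest of the partner lists in a class; Hspa2, Hspa4l, Hspa9, Hspb8, Dnajb9, Dnajc3, Dnajb4, Hsf1 and Bag3 were also given outside this rule, chosen after their values were seen.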

Additional observations from a re-analysis of the deposited data

Results flagged for a closer look

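Some members were higher in GlaKO in a cell class and lower in another, each past a log2 ratio of 0.32 in size with an interval that excludes 0, and the difference between the classes was not tested. On the log2 scale the ratio of Hspa1b in choroid plexus epithelium exceeded that in T cells by 2.35 (1.94 against −0.41), that of Hspa1a by 2.18 (1.64 against −0.53) and that of Dnajb1 by 1.00 (0.66 against −0.33). Hspb1 differed by 2.18 between choroid plexus epithelium (1.46) and neurons (−0.71). The neuronal ratio was −0.19 with clusters weighted equally, 1 cell held 34.7% of its GlaKO UMIs, and the cluster with the highest level stood at 122 CPM in wt and 135 in GlaKO. Hspa2 differed by 1.04 between choroid plexus epithelium (0.40) and microglia (−0.64), and Dnajc9 by 0.91 between T cells (0.43) and oligodendrocyte precursors (−0.48). In T cells the 3 ratios turned when depth was balanced, as given above. The T cell intervals of Hspa1a and Hspa1b can be too narrow, since few cells held their UMIs.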

How the results depend on the processing

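No paired analysis was possible because the labels give no replicate numbers and each genotype has 1 library. Of 333 alternative values for list medians and counts 325 stayed within their interval or margin, 8 moved and 0 reversed, and of 967 for single members 859 stayed, 93 moved and 15 reversed. For the inducible members of choroid plexus epithelium (0.66) the median was 0.52 after thinning to 1000 UMIs, 0.92 without Hspd1 and Hspe1 and 0.43 with Hspa8 and Hsp90ab1 added. For the endoplasmic reticulum members there (0.13) it was 0.34 with balanced depth and 0.33 with equal cluster weights. For the inducible members of astrocytes (0.11) it was 0.43 at a minimum of 20 UMIs and 0.54 without Hspd1 and Hspe1. Class-restricted members numbered 7 after thinning, against 11. Reversed after thinning were Hspe1 in oligodendrocytes (−0.0061), Dnajc2 (−0.67) and Dnajc11 (−0.13) in precursors, Hsp90b1 in astrocytes (−0.0728), Dnajb1 in microglia (−0.0311) and, in neurons, Hsp90aa1 (−0.0075), Hsp90ab1 (−0.0122), Dnajb4 (−0.0389) and Dnajc27 (−0.32). With the top 4% of doublet scores removed, Hspa1a (0.0707) and Dnajb1 (0.14) reversed in neurons. With balanced depth Hspa8 reversed in neurons (−0.0020), as did Hspa1a (0.0897), Hspa1b (0.0017) and Dnajb1 (0.0874) in T cells. The cause was not tested. Thinned values rest on 1000 UMIs per cell and so on fewer counts of a member.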

Other observations

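Vessel cells were too few to compare, with 100 wt and 33 GlaKO endothelial cells and 33 and 14 pericytes, yet in wt they held more Hspa1a, Hspa1b and Hspb1 than any of the 7 compared classes, and for these 3 genes the GlaKO library was the lower. Endothelial Hspb1 was at 2873 CPM in wt (1028 UMIs, 2700 to 3054) and at 478 in GlaKO (66 UMIs, 369 to 608). Endothelial Hspa1a was at 1149 (411 UMIs) and 260 (36 UMIs), and Hspa1b at 601 (215 UMIs) and 224 (31 UMIs). In pericytes Hspa1a was at 3209 (346 UMIs) and 1641 (73 UMIs), Hspa1b at 2189 and 584, and Hspb1 at 1910 and 832. Hsp90aa1 did not go the same way in endothelial cells, at 1333 in wt and 2258 in GlaKO, nor did Hsph1, at 123 and 145. Hspa8 stood at 2169 and 1860 in endothelial cells and at 2383 and 1731 in pericytes. Border macrophages (34 and 46 cells) had Hspa1a at 541 and 239 and Hspa1b at 291 and 167. In B cells (13 and 18 cells) these were at 388 and 37.5 and at 374 and 62.6. Hsph1 went the other way, at 37.0 and 81.9 in border macrophages and 27.7 and 87.6 in B cells.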
